A study of Danio rerio with 8 samples.

Results

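The step from 26 °C to 18 °C was examined in the liver of zebrafish (Danio rerio) by setting 2 liver RNA samples from 18 °C on day 28 against 2 from 26 °C on day 28. These are 4 of the 7 RNA samples in the series, and 2 of its 8 microarrays carry an 18 °C and a 26 °C day 28 sample side by side. The other RNA samples, 2 from 34 °C on day 28 and 1 from 26 °C on day 4, entered the fit and are given here for reference. The labels call the replicates biological. The sources used here give neither strain, sex and age of the fish nor the number of fish behind each sample nor the way the temperatures were reached, so p-values measure the spread between these samples and no more.

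On each array 2 RNA samples, 1 carrying the red dye Cy5 and 1 the green dye Cy3, competed for the same probes, and the value of a probe is the log2 ratio of both signals. Replicate 2 at 18 °C was compared directly with replicate 2 and with replicate 1 at 26 °C. Replicate 1 at 18 °C was paired with replicate 1 at 34 °C and with the day 4 sample at 26 °C, so it reaches the 26 °C day 28 samples only through other arrays of the loop. A least-squares fit over all 8 arrays gave each sample a level, which is printed below on the log2 scale relative to the mean of both 26 °C day 28 samples. Replicates 1 and 2 at 26 °C therefore have values of equal size and opposite sign, and the difference between the groups is the mean of both 18 °C levels. It is given with limma's moderated standard error (SE, n = 2 against 2). The SE comes from the spread of the fitted levels inside all groups and from limma's prior, so the 34 °C pair enters it too. It includes neither the disagreement of single arrays with the fit nor that between probes of 1 gene. Levels close together therefore do not mean that single arrays or probes agreed. The fit also took out a dye effect, a constant shift of a gene's ratios towards 1 dye. Ratios of single arrays, and paths joined from them, are printed with that effect left in. It entered the 2 direct arrays with opposite signs. On the path of 18 °C replicate 1 through 34 °C replicate 1 it added up over both arrays. The ratios were taken to be Cy5 over Cy3. That is likely but not stated in the sources used here. Were they Cy3 over Cy5, all signs printed below would be opposite.

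Fish do not hold their body temperature, so the liver works at that of the water. Long cold exposure in fish is known for remodelling of membrane lipids, in which fatty acid desaturases and elongases and the cholesterol content of membranes take part, and cold-inducible RNA-binding proteins and chaperones are textbook responders to temperature. The liver also makes most apolipoproteins, clotting and complement proteins, takes up and breaks down fatty acids and amino acids, disposes of foreign compounds and, in females, makes the egg yolk precursors.

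Over 35434 features (15548 genes with a symbol and unnamed probes), the difference between 18 and 26 °C had a median of -0.001 and an SD of 0.228, and the median SE was 0.0622. The levels of replicates 1 and 2 differed with an SD of 0.273 at 18 °C and 0.226 at 26 °C. By limma, 1 feature passed an adjusted p of 0.05 (0.00282% of all), and it was lower at 18 °C. Before adjustment, 1570 features had a p below 0.05 by limma (4.43%), 618 higher (1.74%) and 952 lower (2.69%). Over all features this is no surplus, since a threshold of 0.05 would by itself give a slightly larger share if no feature differed. Among genes with a symbol 508 were higher (3.27%) and 708 lower (4.55%) by that measure, together above that share. The test ignored the correlation that shared arrays give the levels, so neither share can tell how many features differed. The sign was positive in 17507 features (49.4%) and negative in 17927 (50.6%). Both 18 °C samples lay above both 26 °C samples in 4156 features (11.7%) and below both in 4778 (13.5%). Among genes with a symbol the shares above and below were 14.9% and 17.1%. A difference of at least 2-fold was seen in 394 features (1.11%), 178 higher (0.502%) and 216 lower (0.610%). Limma applied to the 8 arrays directly, which treats arrays that share an RNA sample as independent, called 29 features (0.0818%), 13 higher (0.0367%) and 16 lower (0.0452%). Since nearly all features missed the threshold, the values that follow are descriptions of these samples unless a test is said to have been passed.

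The gene that passed was itgb1b.2, an integrin beta subunit, a class of receptors that tie cells to the extracellular matrix. Its levels were -1.35 and -1.43 in replicates 1 and 2 at 18 °C, and 0.01 and -0.01 at 26 °C. In the fitted levels both 18 °C samples lay far below both 26 °C samples, with little distance inside either pair. The difference was -1.39 ± 0.04 (limma, adjusted p = 0.0453), a 2.62-fold lower level. The direct arrays gave -1.10 against replicate 2 and -1.75 against replicate 1 at 26 °C, and the array of 18 °C replicate 1 over the day 4 sample gave -1.38. The path of 18 °C replicate 1 through 34 °C replicate 1 gave -2.17 against replicate 2 and -1.25 against replicate 1 at 26 °C. These ratios lay further apart than the fitted levels, and they hold the dye effect that the fit removed. The call rested on 1 probe and on single arrays. Without the array that joins replicate 1 at 34 °C with replicate 1 at 18 °C the value was 0.35. The call was kept under 3 of 21 alternatives, and 1 of these, without the day 4 sample, could not have changed it. Both runs without a 34 °C sample repeated another of the 21.

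The 15 named genes with the largest lower values at 18 °C, among 604 named genes with an unadjusted p below 0.05, non-overlapping groups and 1 sign on all probes and both direct arrays, had differences from -3.13 to -1.84. None passed (limma, adjusted p from 0.168 to 0.889). The lowest was fabp7a, a fatty acid-binding protein first known from brain, with levels of -2.67 and -3.58 in replicates 1 and 2 at 18 °C against 0.11 and -0.11 at 26 °C and a difference of -3.13 ± 0.33. The fatty acid elongase elovl6, which extends palmitate, had -2.40 and -2.33 at 18 °C against -0.06 and 0.06, a difference of -2.37 ± 0.12 (limma, adjusted p = 0.168). Its probes differed, with -3.40 and -1.33. Its 2 samples at 18 °C were close together, whereas those of fabp7a lay further apart. The polyunsaturated fatty acid elongase elovl2 had -1.85 and -2.49 at 18 °C against 0.24 and -0.24, a difference of -2.17 ± 0.38.

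Of the other lower genes, 5 act in lipid handling or transport. The apolipoprotein genes apoeb (-2.08 ± 0.63) and apoa2 (-1.97 ± 0.58) code for carriers of plasma lipids, and abcd3a (-1.88 ± 0.28) for a peroxisomal transporter of fatty acids. The 18 °C samples of apoeb lay far apart, at -1.36 and -2.81. Membrane transporters were slc51a (-2.13 ± 0.58), a subunit of the organic solute exporter that moves bile acids, and slc16a10 (-2.34 ± 0.40), a carrier of aromatic amino acids. Another 2 were chromatin genes, hmgb1a (-2.17 ± 0.35, with -2.10 and -2.23 at 18 °C) and hmgn2 (-2.12 ± 0.24, with -1.90 and -2.35). The others were the lysosomal protease ctsl.1 (-2.70 ± 0.58), the vesicle transport GTPase rab1aa (-2.16 ± 0.26), gatm (-1.84 ± 0.47), the enzyme of the first step of creatine synthesis, tm4sf21a (-1.91 ± 0.47), a tetraspan membrane protein, and c6ast4 (-1.84 ± 0.45), a metalloprotease of the exocrine pancreas. The probes of gatm differed, with -0.80 and -2.88. For ctsl.1 replicates 1 and 2 at 26 °C lay far apart, at 0.83 and -0.83, against -2.92 and -2.48 at 18 °C.

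The 15 largest higher values ran from 2.12 to 1.59, among 391 named genes under the same conditions, and none passed (limma, adjusted p from 0.168 to 1.00). The largest was igfbp1a, a binding protein that holds insulin-like growth factors, with levels of 2.19 and 2.06 in replicates 1 and 2 at 18 °C against 0.33 and -0.33 at 26 °C. Its difference of 2.12 ± 0.59 had a wide error, in a gene whose 34 °C samples also lay apart, at 1.47 and -0.21. The ubiquitin hydrolase uchl1 had 1.82 and 1.65 at 18 °C against 0.07 and -0.07 (1.74 ± 0.09, limma adjusted p = 0.168), and the deadenylase parn, which shortens poly(A) tails, had 1.86 and 1.70 against 0.05 and -0.05 (1.78 ± 0.18). In both genes the 18 °C samples were about as close together as the 26 °C samples. The epithelial adhesion gene epcam had 2.14 and 1.28 at 18 °C, a difference of 1.71 ± 0.32, and elovl6l, a gene similar to elovl6, had 1.34 and 1.89 (1.61 ± 0.38), opposite in sign to elovl6.

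Of the 15 higher genes, 4 belong to the oocyte marker list. Among all 391 named genes under the same conditions 12 were oocyte markers (3.07%), while the 29 markers make up 0.187% of the genes with a symbol. The 391 leave out clone names and the genes with a symbol include them, so these shares have unlike bases. The marker list was also chosen with earlier results of these data known. The 4 were zp3a.1 (1.59 ± 0.28), a glycoprotein of the egg envelope, the oocyte linker histone gene h1m (1.65 ± 0.43), the pluripotency factor gene nanog (1.73 ± 0.33), whose RNA fish eggs store, and org (1.75 ± 0.66), named for its expression in oogenesis. Outside that list, and picked here after their values were seen, btg4 (2.03 ± 0.76) acts in the clearance of maternal RNA in mice, fbxo43 (1.93 ± 0.22) holds eggs in meiosis, gtf3ab (1.70 ± 0.30) codes for the RNA polymerase III factor that frog oocytes store, and zglp1 (1.70 ± 0.46) acts in germ cells of mice. The 18 °C levels of btg4 were 1.21 and 2.85 and those of nanog 1.24 and 2.22, with replicate 2 the higher one. The path of 18 °C replicate 1 through 34 °C replicate 1 alone differed in sign between replicates 1 and 2 at 26 °C for h1m (0.91 and -0.65) and zglp1 (0.56 and -0.51). The dye effect is left in these path values. The RNA-binding protein gene larp6a (1.78 ± 0.40) and the thioesterase gene ppt2a.3 (2.05 ± 0.56) completed the set.

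**Figure D1:**
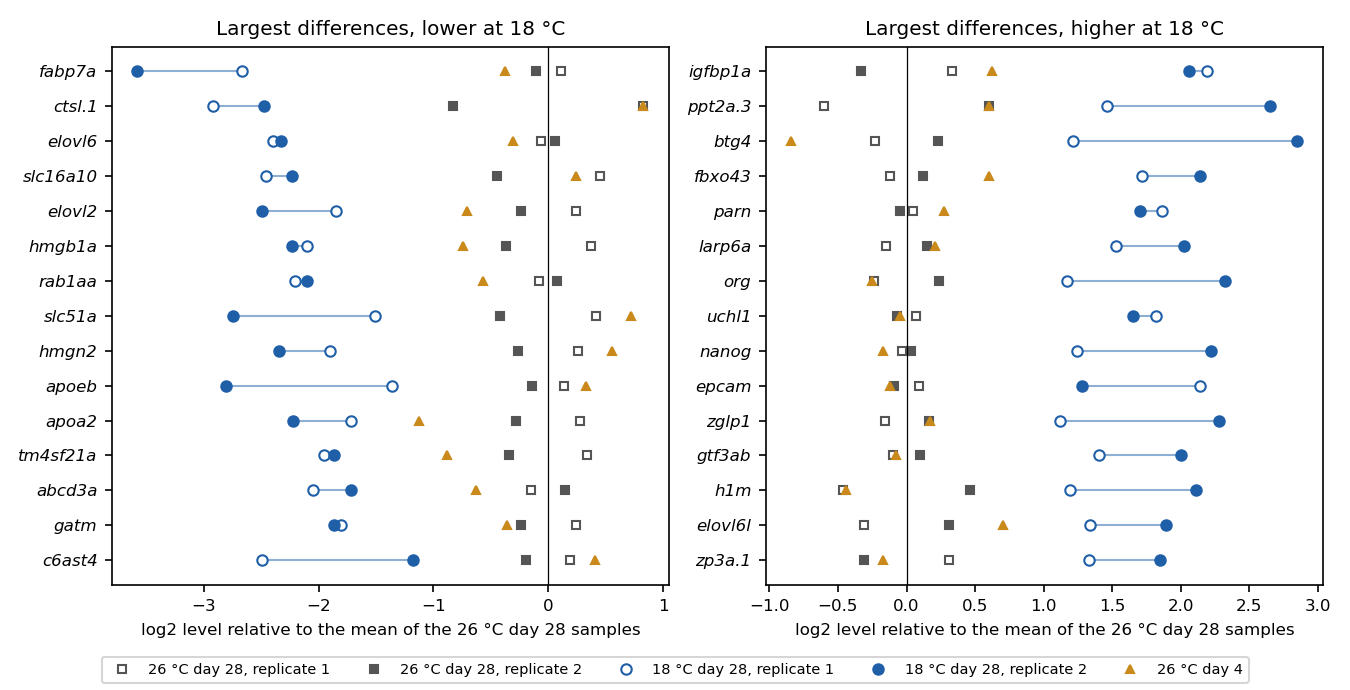
Log2 levels (x axis, relative to the mean of the 26 °C day 28 samples) of the 15 genes with the largest lower (left) and higher (right) values at 18 °C (y axis). Circles are the 18 °C samples, squares the 26 °C day 28 samples (open replicate 1, filled replicate 2) and triangles the 26 °C day 4 sample. Lines join the 18 °C samples, which lie outside the range of both squares in every gene because the genes were chosen so, and the line is short for elovl6, uchl1 and parn and long for btg4, apoeb and slc51a.

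Replicate 2 at 18 °C lay further from 26 °C than replicate 1 in 8 of the 15 lower and 11 of the 15 higher genes. The array of 18 °C replicate 1 over the 26 °C day 4 sample shares no RNA with the 2 direct arrays, although the fit that chose the genes used it. On that array 14 of the 15 lower genes were negative, between -3.94 (ctsl.1) and -1.11 (tm4sf21a) apart from the exception apoa2 (0.70), and 15 of the 15 higher ones were positive, between 0.42 and 2.55. Over all features, 60.5% had the sign of their difference there. The day 4 sample lay nearer the 26 °C day 28 mean than the 18 °C mean in 14 of the lower and 15 of the higher genes, the exception again being apoa2 at -1.13. Of all 113 genes named in the text whose groups do not overlap, 9 had the opposite sign on that array (apoa2, cirbpa, esr1, fga, ldlrb, psma3, rbp4, rpia and vtg5). For 20 the 26 °C day 4 sample lay nearer the 18 °C mean. They were acaca, acad11, apoa2, cirbpa, cyp3a65, cyp51, eif4a2, esr1, hmgb3a, hmgcra, hoga1, hspa8, insig1, ldlrb, msmo1, psma3, rpia, socs1a, ssr2 and vtg5. For ldlrb the day 4 level was -0.86, below both 18 °C samples (-0.69 and -0.54). The mean of the 34 °C samples fell on the other side of 26 °C from 18 °C in 12 lower and 14 higher genes, against 43.8% of all features of any size. Replicate 1 at 18 °C shares arrays with 34 °C replicate 1 and with the day 4 sample, so array error can move their fitted levels apart. The counts for the day 4 and 34 °C samples are therefore tied to the choice of the genes. For elovl2, with 2.16 and 1.33 at 34 °C, and rab1aa, with 1.58 and 0.83, the levels followed the 3 temperatures in order, whereas elovl6 (-0.12 and 0.21), hmgn2 (-0.03 and 0.21) and gatm (-0.33 and -1.66) did not lie above the 26 °C mean in both 34 °C samples.

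**Figure D2:**
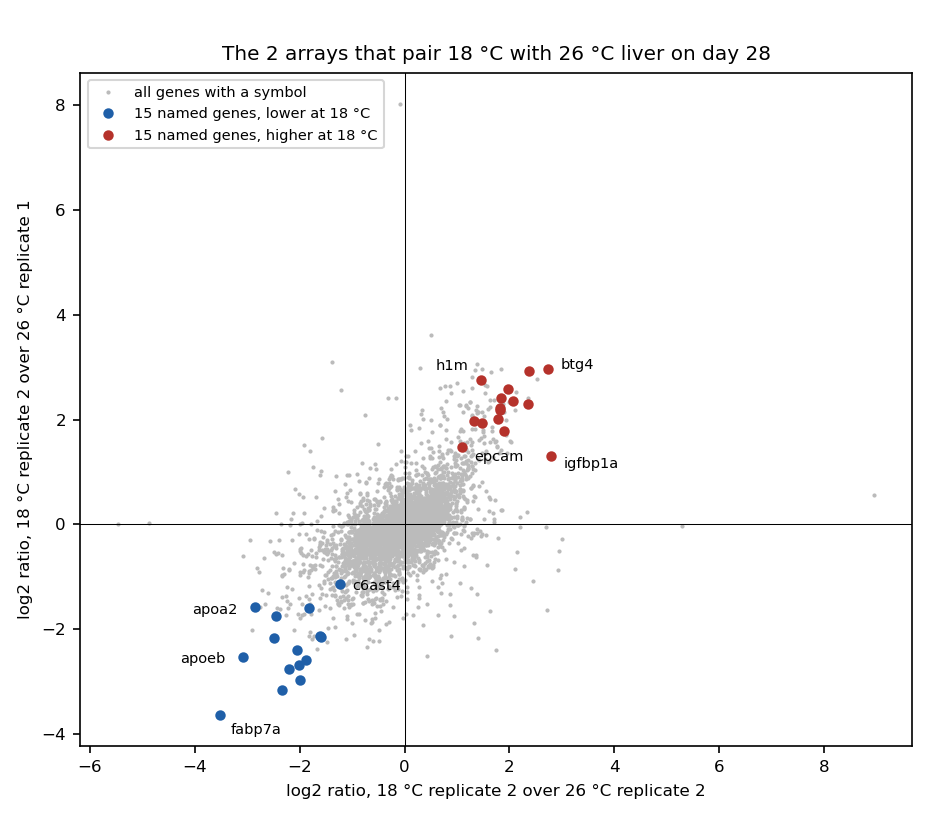
Log2 ratios of 18 °C replicate 2 over 26 °C replicate 2 (x axis) and over 26 °C replicate 1 (y axis), the 2 arrays that pair both temperatures on day 28, turned to 18 over 26 °C. Grey points are all genes with a symbol and coloured points the 15 lower (blue) and 15 higher (red) genes, which fall in the lower left and upper right because the rule asked for equal signs, with igfbp1a higher on the first array and h1m on the second. Both arrays share the 18 °C sample, and grey points far along 1 axis only had an extreme ratio on 1 array.

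Cholesterol synthesis genes had the lowest median of the pathway lists, at -0.51 over 21 measured genes. Of these, 18 were negative and 15 (71.4%) had both 18 °C samples below both 26 °C samples, against 13.5% of all features; 0 were above both. Before adjustment 10 had a p below 0.05 by limma, all lower, against 2.69% of all features and 4.55% of genes with a symbol. Of the list 0 passed the adjusted threshold (limma, lowest adjusted p = 0.427). The list's median level was -0.41 in replicate 1 and -0.74 in replicate 2 at 18 °C, and -0.14 in the day 4 sample. Hepatocyte markers had median levels of -0.34 and -0.77 in these 18 °C samples, and their part in this and the other lower lists was not tested. Leaving out any 1 of the 3 arrays on the path from 18 °C replicate 1 through the day 4 sample and 34 °C replicate 2 to 26 °C replicate 2 gave a median of -0.23 and 7 genes below, while the share of all features below then was 6.68%. Without the array of 34 °C replicate 1 over 18 °C replicate 1 the median was -1.14 and 16 genes were below.

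Lower values stood at the start, in some isoprenoid steps and in later steps of the pathway. At its start, acat2, which joins acetyl units, had -0.94 and -2.06 at 18 °C (-1.50 ± 0.39). The condensing enzyme hmgcs1 followed with -0.76 and -1.18 (-0.97 ± 0.18), and hmgcra, the rate-limiting reductase, with -0.70 and -1.14 (-0.92 ± 0.31). Their 26 °C samples lay within 0.05 of 0 for acat2 and hmgcs1, and at 0.23 and -0.23 for hmgcra. The probes of hmgcs1 differed, with -1.85 and -0.09. In the isoprenoid steps idi1 had -0.76 ± 0.29 and fdps -0.66 ± 0.20. Past the closure of the sterol rings by lss (-0.70 ± 0.11, with -0.65 and -0.74), the demethylase cyp51 had -0.63 ± 0.21, msmo1 -0.91 ± 0.20 and hsd17b7 -0.50 ± 0.10. The last steps were ebp with -1.26 and -1.45 (-1.36 ± 0.24) and the final reductase dhcr7 with -0.79 and -1.29 (-1.04 ± 0.18). For dhcr7 the path of 18 °C replicate 1 through 34 °C replicate 1 alone gave -0.08 and 0.41 against replicates 1 and 2 at 26 °C. Unlike the fitted levels, both path values hold the dye effect. Among the exceptions, mvk (0.15 ± 0.19), fdft1 (-0.01 ± 0.05), sqleb (0.03 ± 0.07) and lbr (0.08 ± 0.07) were near 0. Another, mvda, had 0.96 in replicate 1 and a negative level of similar size in replicate 2, which cancelled to -0.02 ± 0.78.

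**Figure D3:**
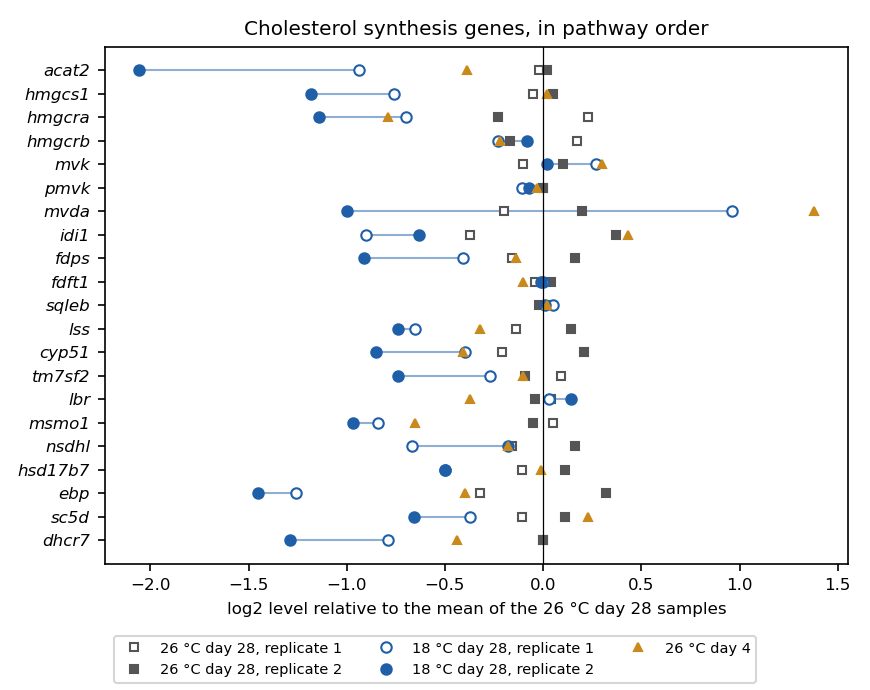
Log2 levels (x axis, relative to the mean of the 26 °C day 28 samples) of the 21 measured cholesterol synthesis genes in pathway order from top to bottom (y axis). Circles are the 18 °C samples, squares the 26 °C day 28 samples (open replicate 1, filled replicate 2) and triangles the day 4 sample. The 18 °C samples of acat2, hmgcs1, ebp and dhcr7 lie left of both squares, while those of mvda lie on either side.

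Of the genes that control sterol supply, 8 of 17 (47.1%) were below and 2 above, against 13.5% and 11.7% of all features. The uptake receptor gene ldlrb had -0.69 and -0.54 at 18 °C against 0.01 and -0.01 (-0.61 ± 0.09), and insig1, which holds back the sterol response, -0.37 ± 0.09. In the opposite direction stood mylipa, whose mammalian relative marks the LDL receptor for breakdown, with 1.27 and 1.70 at 18 °C against -0.49 and 0.49 (1.48 ± 0.44). The list's median was -0.10, and it was 0.02 without any 1 of the arrays on the day 4 path.

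Desaturation and elongation genes went both ways, with 11 of 24 (45.8%) below, 4 (16.7%) above and a median of -0.15. The shares of all features were 13.5% below and 11.7% above. Beside elovl6 and elovl2, lower values belonged to hacd3 (-1.02 ± 0.17, with -0.77 and -1.28 at 18 °C) and hsd17b12b (-0.96 ± 0.21, with -0.65 and -1.26), which code for the dehydratase and the ketoacyl reductase of the elongation cycle. For hsd17b12b the path of 18 °C replicate 1 through 34 °C replicate 1 alone gave 0.04 and 0.08 against replicates 1 and 2 at 26 °C. Here too the dye effect is left in. The stearoyl-CoA desaturase gene scd had -0.46 ± 0.21. Its levels were -0.14 and -0.78 at 18 °C against 0.01 and -0.01, so replicate 1 was close to 26 °C. Among fatty acid synthesis genes 6 of 13 were below and 1 above, among them acaca (-0.96 ± 0.22), the carboxylase that commits acetyl-CoA to the pathway (0.03 without the array of 34 °C replicate 1 over 18 °C replicate 1), and the acyl-CoA synthetase gene acsl4a (-1.61 ± 0.24, with -1.30 and -1.93).

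Lipid storage, oxidation and binding lists also had more genes below than above. Of all features 13.5% lay below and 11.7% above, and of genes with a symbol 17.1% and 14.9%. Fatty acid-binding proteins had 7 of 24 genes at least 2-fold lower and apolipoproteins 4 of 19, against 3 of 21 in cholesterol synthesis and 0.610% of all features. Of 18 triglyceride and lipid droplet genes 6 (33.3%) were below, less than 2 times the share of genes with a symbol, and 1 was above. The lower ones included cidec, a lipid droplet protein (-0.75 ± 0.11), and angptl4, an inhibitor of lipoprotein lipase (-1.54 ± 0.24, with -1.75 and -1.34). Mitochondrial fatty acid oxidation had 11 of 24 (45.8%) below and 0 above, among them hadh (-1.09 ± 0.54), etfa (-0.74 ± 0.22) and, with the lowest p of the list, acad11 (-0.55 ± 0.08). Its median of -0.14 was 0.04 without any 1 of the arrays on the day 4 path. Peroxisomal oxidation had 9 of 25 (36.0%) below and 1 above, with the thiolase acaa1 at -1.17 ± 0.20. Fatty acid-binding and related proteins had 10 of 24 (41.7%) below and 1 above. Beside fabp7a these included acbd7 (-1.26 ± 0.20) and the retinol carrier rbp4 (-1.08 ± 0.21, with probes at -2.15 and -0.01). The gene fabp3 had levels of -1.20 and -0.81 in replicates 1 and 2 at 18 °C against 0.05 and -0.05. Apolipoproteins had 7 of 19 (36.8%) below and 0 above, with apoda.2 at -1.81 ± 0.33 and apoa4b.1 at -1.53 ± 0.30. Bile acid genes had 5 of 14 (35.7%) below and 0 above, with the canalicular export pump abcc2 at -0.44 ± 0.07.

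Enzymes that conjugate and clear compounds were below in 28 of 53 cases (52.8%) and above in 0, against 13.5% and 11.7% of all features, with a median of -0.13. Without any 1 of the arrays on the day 4 path 10 were below, against 6.68% of all features. The glucuronosyltransferase ugt5b4 had -0.81 and -0.78 at 18 °C against -0.01 and 0.01 at 26 °C, a difference of -0.80 ± 0.05 (limma, adjusted p = 0.242). Another, ugt5c2, had -1.55 ± 0.25, and the microsomal glutathione transferase mgst2 -0.63 ± 0.08. Cytochrome P450 genes were below in 28 of 73 cases and above in 4, among them cyp3a65 (-0.76 ± 0.16). Antioxidant and glutathione genes had 22 of 50 (44.0%) below and 7 above. The thioredoxin txnb had -1.35 and -1.54 at 18 °C against -0.14 and 0.14 (-1.44 ± 0.16), the superoxide dismutase sod1 -1.20 ± 0.25 and the peroxiredoxin prdx2 -1.10 ± 0.28, which turned to 0.30 without the array of 34 °C replicate 1 over 18 °C replicate 1. In these 3 genes the 18 °C samples lay below both 26 °C samples, and replicate 2 was the lower one.

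Proteasome subunit genes had a median of -0.22, with 45 of 52 negative, 20 (38.5%) below and 2 above, against 50.6%, 13.5% and 11.7% of all features. Their values were of moderate size, and 1 reached 2-fold: psma3, a subunit of the core ring, with -1.04 and -1.09 at 18 °C (-1.07 ± 0.26). The day 4 sample lay at -1.62 for psma3 and the 34 °C samples at -0.94 and -1.72, so the 26 °C day 28 samples stood above all others. On the array of 18 °C replicate 1 over the day 4 sample psma3 had 0.58 and the list a median of -0.03. The regulator subunits psme1 and psme2, which open the core, had -0.92 ± 0.20 and -0.58 ± 0.14, and the base ATPase psmc1b -0.72 ± 0.15.

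Secreted plasma proteins had more genes below than above in the complement list (15 of 32 below, 2 above, median -0.46). The complement median level was -0.17 and -0.50 in replicates 1 and 2 at 18 °C, and 0.19 and -0.19 at 26 °C. Replicate 1 at 18 °C thus stood about level with replicate 2 at 26 °C. The coagulation list had 13 of 29 below, 2 above and a median of -0.32, or -0.04 without any 1 of the arrays on the day 4 path. Of all features 13.5% lay below and 11.7% above. Examples were the complement components c1qb (-0.52 ± 0.09) and c1s.2 (-0.70 ± 0.24), vtnb, a vitronectin (-1.09 ± 0.26), and the clotting factor f9b (-0.76 ± 0.25). For c1qb an alternative of the processing gave -0.01. The protease inhibitor serpine2 was on the other side, with 0.58 and 0.65 at 18 °C (0.62 ± 0.18). Iron and acute phase genes had 13 of 40 below and 1 above, with transferrin (tfa) at -0.90 ± 0.25 and crp3 at -1.28 ± 0.33. Amino acid breakdown genes were below in 32 of 82 cases and above in 7. The proline synthesis reductase pycr1b, a member of this list, had 1.08 and 1.25 at 18 °C against -0.19 and 0.19 (1.16 ± 0.14), whereas gnmt, which uses up methyl groups, had -0.72 ± 0.13 and hoga1 of hydroxyproline breakdown -0.78 ± 0.11. For pycr1b the path of 18 °C replicate 1 through 34 °C replicate 1 alone gave -0.05 and -0.80 against replicates 1 and 2 at 26 °C. Both path values hold the dye effect, which the fit removed from the levels. Of the vitellogenin and oestrogen list 5 of 11 were below and 0 above, with the oestrogen receptor esr1 at -0.52 ± 0.12 and the yolk precursor vtg5 at -1.36 ± 0.64. The day 4 sample was low for both, at -0.98 and -1.33, and the array of 18 °C replicate 1 over that sample was positive for both (0.19 and 0.78). The list's median of -0.27 was 0.05 without any 1 of the arrays on the day 4 path.

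The energy lists described here had more genes below than above, apart from glycolysis. Of all features 13.5% lay below and 11.7% above. The ATP synthase, pentose phosphate and glycolysis medians turned in sign under at least 1 alternative. ATP synthase subunits had 7 of 14 below and 1 above, and pentose phosphate genes 5 of 15 below and 2 above, with rpia at -0.56 ± 0.07. Gluconeogenesis and glycogen genes had 10 of 29 below and 1 above, with the liver glycogen phosphorylase pygl at -1.45 ± 0.46. Glycolysis was 1 of 2 pathway lists whose share above (8 of 29, 27.6%) was at least 2 times the 11.7% of all features, but 6 were below and the median was -0.01. Its members tpi1a and pfkma had 0.83 ± 0.22 and 0.39 ± 0.13. Ribosome biogenesis genes had 25 of 85 below and 11 above, and membrane transport ATPases 15 of 45 below and 3 above.

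The textbook temperature lists lay near 0. The shares of all features were 13.5% below and 11.7% above, and 0.610% at least 2-fold lower and 0.502% at least 2-fold higher. Cold-inducible and RNA chaperone genes had a median of 0.00 over 22 genes, with 5 below and 3 above, cytosolic heat shock genes 0.00 over 55, with 9 below and 6 above, and endoplasmic reticulum chaperones 0.03 over 51, with 5 below and 10 above (19.6%). The cold-inducible and endoplasmic reticulum lists each held 2 genes at least 2-fold lower and 0 at least 2-fold higher, and the heat shock list ran from -0.87 to 0.59. The chromatin protein hmgb3a had -1.86 and -1.34 at 18 °C (-1.60 ± 0.21), while hmgb2a had 0.91 and 0.84 (0.88 ± 0.16). The glucose-regulated chaperone hsp90b1 had 0.81 and 1.16 (0.98 ± 0.14), while ssr2, part of the translocon-associated complex, had -1.13 and -0.94 (-1.03 ± 0.13). The path of 18 °C replicate 1 through 34 °C replicate 1 alone differed in sign between replicates 1 and 2 at 26 °C for hsp90b1 (0.24 and -0.53) and ssr2 (-0.57 and 0.07). As before, path values include the dye effect. Of 7 measured genes taken as temperature markers none passed. The cold-inducible RNA-binding protein cirbpa had -0.74 and -0.96 at 18 °C against -0.26 and 0.26 (-0.85 ± 0.32). On the direct arrays cirbpa had -1.96 against replicate 2 and 0.03 against replicate 1 at 26 °C, and 0.45 on the array of 18 °C replicate 1 over the day 4 sample. Its relative cirbpb had -0.18 ± 0.36 with probes of opposite sign. The constitutive chaperone hspa8 had -1.27 and -0.47 (-0.87 ± 0.36). The remaining values were 0.14 ± 0.13 for hsp90aa1.1, 0.13 ± 0.09 for serpinh1b, a collagen chaperone, and 0.19 ± 0.54 for hspa5, whose probes disagreed in sign and whose 26 °C samples lay at -0.78 and 0.78.

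Cell cycle genes were the list with the highest pathway median, 0.36 over 82 measured genes. Of these, 70 were positive, 43 (52.4%) lay above both 26 °C samples and 5 (6.10%) below, against 11.7% and 13.5% of all features. By limma 21 had an unadjusted p below 0.05 and a higher value, against 1.74% of all features and 3.27% of genes with a symbol. The spindle checkpoint gene mad2l1 had 0.88 and 1.05 at 18 °C against 0.04 and -0.04 (0.96 ± 0.10; limma, adjusted p = 0.390). The phosphatase cdc25b, which starts mitosis, had 1.28 and 1.16 (1.22 ± 0.31), and the condensin subunit ncaph had 0.32 ± 0.08. The list's median level was 0.30 in both 18 °C samples and -0.09 in the day 4 sample. Oocyte markers, 1 of which belongs to the cell cycle list, had median levels of 0.65 and 1.35 there, and their part in the cell cycle values was not tested. Without any 1 of the 3 arrays on the day 4 path, the cell cycle median was 0.20 with 24 genes above, against 6.53% of all features.

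**Figure D4:**
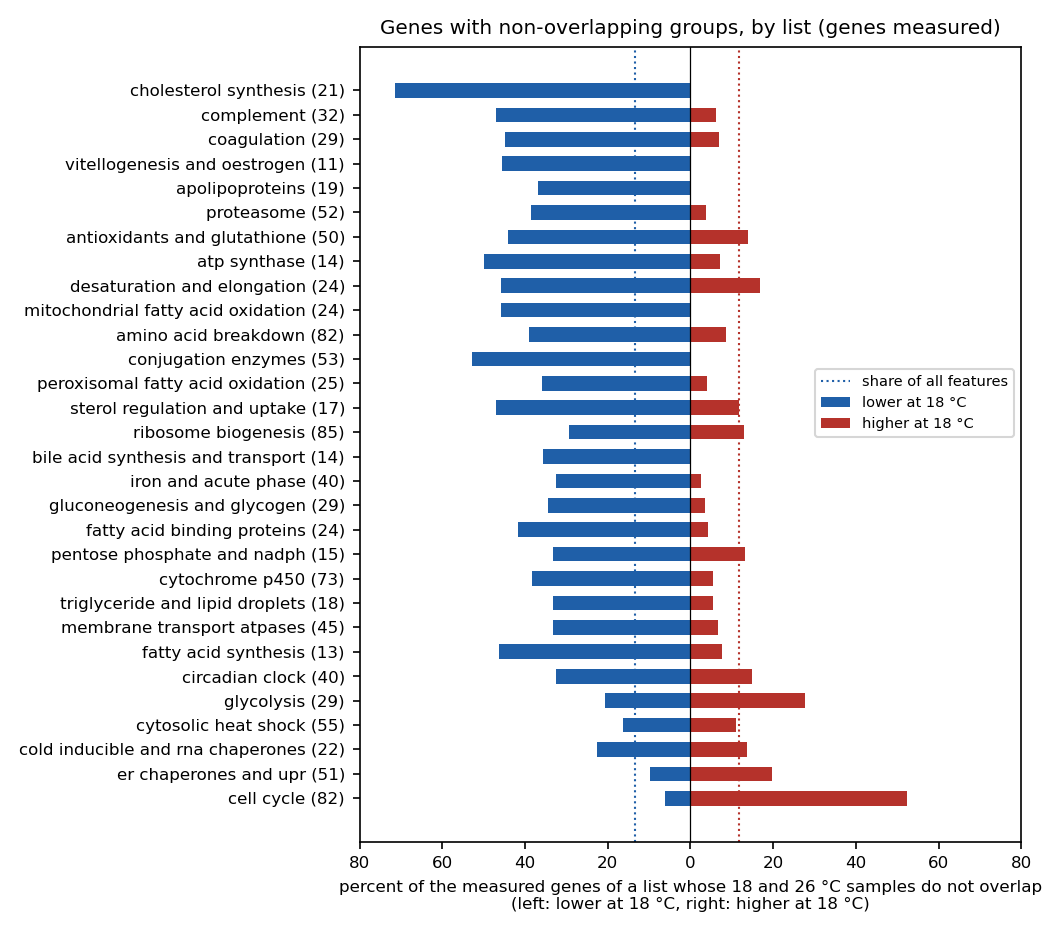
Share of the measured genes of each described pathway list (y axis, number measured in brackets) whose 18 °C samples both lie below (left, blue) or both above (right, red) both 26 °C day 28 samples, in percent (x axis), ordered by median difference. Dotted lines are the shares of all features, 13.5% and 11.7%. Cholesterol synthesis at the top has 71.4% below and 0 above, and the cell cycle at the bottom has 52.4% above.

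In all, 25 of 41 pathway lists had a share below of at least 2 times that of all features. Above, 2 lists had such a share. Some lists share members, such as gnmt and rbp4, and all rest on the same 4 samples, so their number does not count separate results. Lists hold only genes with a symbol, and at 2 times the shares of those genes (17.1% and 14.9%) 19 lists qualified below and 1, the cell cycle, above. The lists lost were triglycerides, pentose phosphate, ribosome biogenesis, iron and acute phase, the circadian clock and membrane transport ATPases below, and glycolysis above. The 11 lists not described, among them ribosomal proteins, the respiratory chain and splicing factors, had medians from -0.10 to 0.03.

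Markers of cell types moved beside these lists. Oocyte markers had a median of 0.92, with 28 of 29 positive and 21 (72.4%) above both 26 °C samples, against 49.4% and 11.7% of all features. Their median level was 0.65 in replicate 1 and 1.35 in replicate 2 at 18 °C, -0.12 and 0.12 at 26 °C and -0.37 on day 4. Members were the egg growth factor bmp15 with 0.78 and 0.76 (0.77 ± 0.15), the meiotic kinase mos with 0.89 and 1.03 (0.96 ± 0.15) and zp3b with 1.15 and 1.39 (1.27 ± 0.35), whereas zar1 had -0.10 and 1.96 and figla, a regulator of egg envelope genes, 0.03 ± 0.13. Of these markers 0 passed (limma, lowest adjusted p = 0.433). Without any 1 of the arrays on the day 4 path 12 lay above (6.53% of all features), and the path from 18 °C replicate 1 through 34 °C replicate 1 alone gave a median of 0.27. That last median holds the dye effect of its arrays, which the fitted levels do not. Testis markers had a median of 0.00 over 23 genes, with 3 above and 1 below. Among those above was piwil1, which acts in the germline of both sexes, with 0.42 and 0.35 at 18 °C (0.39 ± 0.07).

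Of 23 hepatocyte markers 19 were negative, 9 (39.1%) below and 1 (4.35%) above, against 50.6%, 13.5% and 11.7% of all features. Their median difference was -0.43. It was -0.25 without replicate 1 and -0.76 without replicate 2 at 26 °C. Their median level was 0.26 and -0.26 at 26 °C, so the replicates lay apart there too. Examples were the plasma proteins ahsg2 (-0.97 ± 0.36) and fga (-0.69 ± 0.30, but 0.18 without the array of 34 °C replicate 1 over 18 °C replicate 1) and the liver fatty acid-binding protein fabp10a, with -0.35 and -1.85 at 18 °C against -0.48 and 0.48. Of these 23 markers, 22 are also members of a pathway list. At 18 °C, replicate 2 had the higher oocyte and the lower hepatocyte and cholesterol synthesis median. In RNA from whole liver a change in the share of a cell type cannot be told apart from a change in RNA per cell. Ratios give no absolute level, so the labelled tissue could not be checked by the presence of markers.

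Exocrine pancreas markers differed between samples of 1 temperature. Their median was -0.99 and -0.04 in replicates 1 and 2 at 18 °C, 0.80 and -0.80 at 26 °C and 1.09 on day 4. On the direct arrays it was 0.72 against 26 °C replicate 2 and -0.96 against replicate 1, opposite in sign, and 28 of 31 genes were higher in 26 °C replicate 1 than in replicate 2. The median difference of -0.49 had 4 genes below and 1 above (12.9% and 3.23%, against 13.5% and 11.7% of all features), and it was 0.30 without 26 °C replicate 1. The part of these pancreas transcripts in the value of c6ast4 was not tested. Nor was it for ctsl.1, which was also higher in 26 °C replicate 1 than in replicate 2. Macrophage markers had 10 of 21 below and 3 above with a median of -0.12 (0.01 without any 1 of the arrays on the day 4 path), among them mpeg1.1 (-0.60 ± 0.16), and 3 of them are complement genes. Cholangiocyte markers had 7 of 16 below and epcam above, with a median of -0.04, and intestine markers 4 of 11 below with a median of -0.09. The other 10 marker lists, among them endothelium, erythrocytes and lymphocytes, had medians from -0.07 to 0.01.

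**Figure D5:**
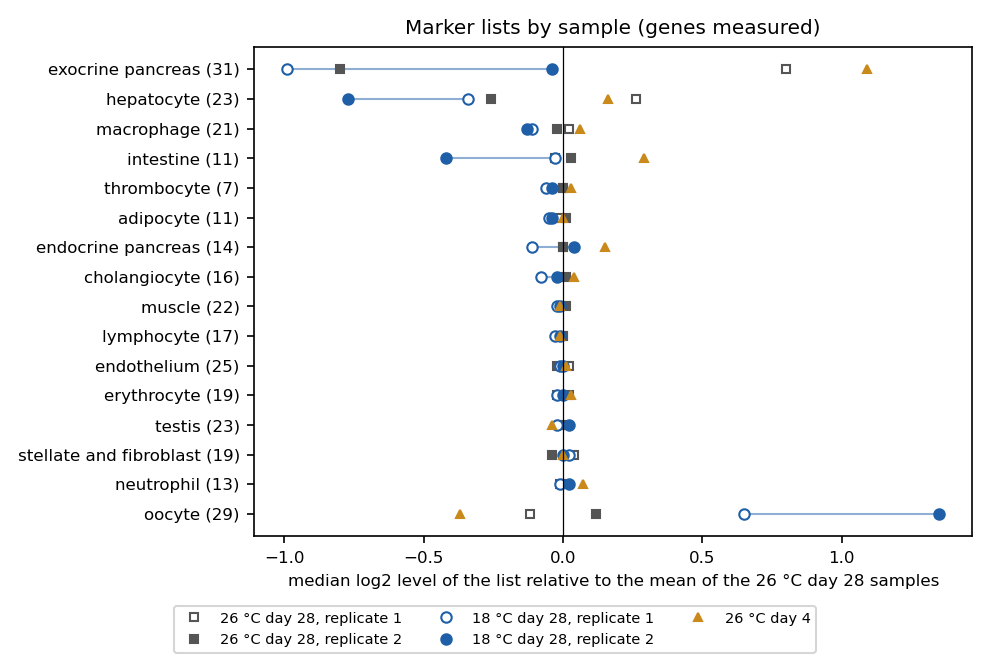
Median log2 level (x axis, relative to the mean of the 26 °C day 28 samples) of each marker list (y axis, number of genes measured in brackets) in every 18 °C (circles) and 26 °C day 28 sample (squares; open replicate 1, filled replicate 2) and in the day 4 sample (triangles). Oocyte medians at 18 °C are 0.65 and 1.35, above both squares, and the exocrine pancreas medians spread from -0.99 to 1.09 with no order by temperature.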

How the data were processed

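Liver RNA of 7 samples was measured on 8 Agilent 2-colour arrays in a loop, with RNA extracted with Trizol per the labels' protocols. Each probe has 1 deposited log2 ratio on each array, which the authors had normalized; per the submitters' processing notes limma was used, with no version. The sources used here do not state the background correction, normalization method, spot filters or log base; the base was taken as 2. Array medians lay between -0.000725 and 0.00385, and channel intensities were not used here, so a dim probe and an unchanged one look alike and the number of arrays limits the precision.

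Of 43603 probes, 23717 (54.4%) had 1 gene symbol, 0 had several and 19886 had none, through the platform annotation updated by a RefSeq gene table of assembly GRCz12tu. Probes that share a symbol were averaged, and each unnamed probe stayed a feature of its own, giving 35434 features. A least-squares fit per feature took the 8 ratios to 7 samples and 1 dye term. limma (version 3.58.1, R 4.3.3; lmFit, eBayes) then compared the 4 groups (3 residual degrees of freedom, 1.63 from the prior), two-sided and adjusted by Benjamini-Hochberg over all features, and ignored the correlation that shared arrays give the levels. Both steps were run on simulated arrays with planted changes larger than nearly all differences found here. Those runs therefore do not bear on smaller changes.

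The members, the 41 pathway and 16 marker lists and the tests were chosen with earlier results of these data known. Lists were described where a share of genes with non-overlapping groups was at least 2 times that of all features, and also for markers and known temperature responses. In each direction the text names the 15 genes with the largest difference under the conditions given in the report, leaving out clone names, 4 members of each described list by p, further members that stand for steps or roles of a list, and temperature genes; rbm3 and hsp70.1 of these were not analysed here. Further list members were chosen after their values were seen.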

Additional observations from a re-analysis of the deposited data

How the results depend on the processing

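The number of features that passed, 1, was 1 with no dye term and with robust eBayes. Leaving the day 4 sample out of the group comparison also gave 1. That run was fixed in advance, since a sample alone in its group adds nothing to the spread. The number was 0 when only the levels of the 18 and 26 °C day 28 samples were compared. With scale normalization (each array divided to equal spread) it was also 0. So it was among 7342 features whose largest ratio was at least 0.5, and for 43603 single probes. Leaving out each array in turn gave 0 as well. Samples were left out only after the levels had been fitted from all 8 arrays. Leaving out a 34 °C or day 4 sample therefore could not change any difference or list median. Without either 34 °C sample the count repeats that of the 18 and 26 °C levels alone. Among these runs with a count of 0, between 486 and 2167 features had an unadjusted p below 0.05 by limma. Limma on the arrays gave 29. Deviations of same-numbered replicates correlated at -0.15 between 18 and 26 °C, -0.13 between 18 and 34 °C and 0.41 between 26 and 34 °C. The fitted levels share arrays, so these correlations cannot decide whether same-numbered samples were paired. The numbers were not taken as pairs, and with a replicate block the count was 0. The planned intensity trend in eBayes was not run, since the mean level of every feature is 0 by construction. Scale normalization gave medians of -1.03 for cholesterol synthesis, -0.29 for desaturation and elongation, -0.24 for conjugation, -0.51 for the proteasome, 0.60 for the cell cycle, 2.21 for oocyte and -1.23 for hepatocyte markers. Single probes gave -0.10 for desaturation and elongation and 0.23 for the cell cycle. The mean of the direct arrays gave -0.74 for cholesterol synthesis, -0.05 for desaturation and elongation, -0.20 for conjugation, -0.77 for hepatocyte and 1.35 for oocyte markers. The path of 18 °C replicate 1 through 34 °C replicate 1 gave -0.14 for cholesterol synthesis, -0.10 for desaturation and elongation, 0.24 for the cell cycle and 0.27 for oocyte markers. Its values hold the dye effect, which adds up over its arrays, so they do not measure the temperature difference alone. It is 1 of the alternatives counted for lists below. Without 1 sample or array, the medians ranged from -1.14 to -0.23 for cholesterol synthesis, -0.27 to -0.05 for desaturation and elongation, -0.26 to -0.09 for conjugation, -0.32 to -0.15 for the proteasome, 0.20 to 0.51 for the cell cycle, 0.65 to 1.35 for oocyte and -0.77 to -0.25 for hepatocyte markers, none of them turning in sign. Of 28 described pathway lists with a median other than 0, the medians of 8 turned in sign under at least 1 alternative, as did those of 8 of 14 marker lists. The pathway lists were mitochondrial fatty acid oxidation (-0.72 to 0.08 over all alternatives), sterol regulation (-0.19 to 0.02), vitellogenin and oestrogen (-0.92 to 0.05), ATP synthase, pentose phosphate, glycolysis, endoplasmic reticulum chaperones and the circadian clock. List counts without samples or arrays were added after seeing the data. Of 125 genes named, 13 turned in sign under at least 1 alternative. Their ranges without 1 sample or array were -2.35 to 0.35 for itgb1b.2, -1.88 to 0.30 for prdx2, -1.50 to 0.03 for acaca, -1.17 to 0.18 for fga, -1.18 to 0.96 for mvda, -0.10 to 2.02 for zar1, -0.28 to 0.61 for figla, -0.69 to 0.97 for hspa5, -0.57 to 0.20 for cirbpb, -0.05 to 0.33 for hsp90aa1.1, -0.16 to 0.64 for serpinh1b, -0.19 to 0.09 for fdft1 and -0.01 to 0.09 for sqleb. With no dye term mvda was 0.02 and fdft1 0.00, and with scale normalization fdft1 was 0.01. Other genes kept their sign but came near 0 under an alternative, such as c1qb (-0.01), nfil3 (-0.04), esr1 (-0.06), abcc2 (-0.08) and hadh (-0.09). Genes chosen for non-overlapping groups cannot show stability of sign by this count. The cause of these moves was not tested.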

Other observations

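Of the 29 features that limma called on the arrays directly, 23 had a symbol. Beside elovl6, fabp7a, fbxo43, parn, uchl1, hmgb3a and ugt5b4 of the report, these held genes picked here after their values were seen. The lower ones included mid1ip1b, a relative of factors that activate acetyl-CoA carboxylase, with -1.77 in the sample fit, the kinase sgk2b (-0.94) and the mitochondrial creatine kinase ckmt1 (-0.93). The higher ones included socs1a, an inhibitor of cytokine signalling (1.43), and the RNA helicase eif4a2 of translation initiation (0.90). The day 4 sample at 26 °C lay at 1.15 for socs1a and 0.61 for eif4a2, which is on the 18 °C side of the day 28 samples. None of these genes passed in the sample fit, where their adjusted p by limma ran from 0.360 to 0.390.

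Of 40 circadian clock genes, 13 had both 18 °C samples below both 26 °C samples and 6 above (13.5% and 11.7% of all features lay so), with a median of -0.02. The period gene per1b had -0.83 and -0.77 in replicates 1 and 2 at 18 °C (-0.80 ± 0.14), with probes of opposite sign, and the repressor nfil3 had -0.49 and -0.82 (-0.66 ± 0.16). The activator bmal1a lay on the other side with 1.55 and 0.65 at 18 °C against -0.43 and 0.43 at 26 °C. The sources used here do not state the hour at which livers were taken.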
